A study of Homo sapiens with 18 samples.

Results

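The genes of homologous recombination and of the Fanconi anaemia pathway are described here through 44 members, taken as the rows of the deposited count tables whose Ensembl identifiers carry the 44 symbols in the GENCODE release 29 annotation. They are 44 of the 58051 gene identifiers in the tables. All 44 passed the filter on low counts, which left 15055 genes for testing. ATRIP passed it only through libraries outside DMSO and dCeMM-4. RNA came from KBM7 cells, an established human line of chronic myelogenous leukaemia, in 6 groups of 3 libraries, 18 in all. Cells received DMSO, the solvent control, or 1 of 5 compounds for 5 h: dCeMM-1, dCeMM-2, dCeMM-3 or dCeMM-4, each at 10 times its own EC50, or THZ531 at 600 nM. The molar doses behind the 4 EC50 multiples are not stated in the labels, so the dose of THZ531 cannot be set beside them. Every group is the same single cell line, and no label says whether replicate libraries were grown as separate cultures, so p-values measure the spread between these libraries, which may be technical.

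Homologous recombination repairs a DNA double-strand break by copying the intact sister molecule. The broken ends are trimmed to single strands, BRCA1, PALB2 and BRCA2 prepare them for pairing, and the RAD54 proteins help the strand find its match. Fanconi anaemia proteins act on crosslinks between the strands: a core complex attaches ubiquitin to FANCD2 and FANCI, which bring in nucleases such as ERCC4 with its scaffold SLX4. The kinase CDK12, which works with cyclin K on RNA polymerase II, is known for sustaining the expression of many of these genes. From the published study of these compounds, dCeMM-2, dCeMM-3 and dCeMM-4 are degraders of cyclin K and dCeMM-1 degrades RBM39, a splicing factor, and THZ531 is a covalent inhibitor of CDK12 and CDK13.

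Levels are CPM, read counts scaled to a common library size by TMM, a method that takes each library's scale from the bulk of its genes, so that a change on this scale is relative to the other genes. A second scale divides each library by its synthetic ERCC and SIRV RNA (the spike-in scale). A change is a log2 fold change with its standard error (SE) from edgeR's quasi-likelihood test, and a gene is called higher or lower where the Benjamini-Hochberg adjusted p over the 15055 genes is below 0.05. Gene counts per library ran from 4598576 in DMSO replicate 3 to 17943571. The spike-in took 0.168% to 0.202% of counts in DMSO, 0.155% to 0.191% with dCeMM-1, 0.195% to 0.290% with dCeMM-4, and between 0.416% and 0.611% with dCeMM-2, dCeMM-3 and THZ531. Whether it was dosed by cell number or by RNA mass is not in the labels, and in these bulk samples fewer cells and less RNA per cell cannot be told apart. All 7 markers of immature myeloid cells were expressed, with a summed level of 757 to 779 CPM in DMSO, 685 to 728 with dCeMM-1, 490.4 to 510.2 with dCeMM-2, 367 to 419 with dCeMM-3, 618 to 664 with dCeMM-4 and 454.5 to 458 with THZ531. Of 9 markers of T, B, epithelial and stromal cells, KRT19, MS4A1 and COL3A1 were at 0 or below 0.15 CPM in every library and 5 passed the filter. The summed level of the 9, most of it CD3D, was 66.9 to 73.3 CPM in DMSO, 62.0 to 62.4 with dCeMM-1, 75.7 to 80.8 with dCeMM-4 and 145 to 185 with dCeMM-2, dCeMM-3 and THZ531. Mitochondrial counts were 4.62% to 5.89% of the total in DMSO, 4.73% to 5.67% with dCeMM-1, 5.09% to 9.1% with dCeMM-2, 10.5% to 14.9% with dCeMM-3, 4.58% to 7.30% with dCeMM-4 and 8.17% to 12.9% with THZ531. The part of these shifts in the changes of the repair genes was not tested.

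Most of the 44 genes fell relative to other genes after 5 h of dCeMM-2, dCeMM-3, dCeMM-4 or THZ531, while dCeMM-1 changed fewer of them, by less and in both directions. With dCeMM-2, 35 were lower than in DMSO and 7 higher, beside 41.2% and 37.1% of all genes tested. With dCeMM-3 the counts were again 35 and 7, where 45.1% and 35.9% of all genes were lower and higher. With dCeMM-4, 33 were lower and 7 higher, beside 35.3% and 32.9% of all genes. With THZ531, 31 were lower and 6 higher, beside 43.7% and 35.8%. The median log2 fold change of the members was -1.04 with dCeMM-2, -0.94 with dCeMM-3, -0.57 with dCeMM-4 and -0.97 with THZ531. Over all genes tested the medians were -0.02, -0.15, 0.01 and -0.10 in the same order. Protein-coding genes alone were lower more often than all genes. Split by gene span at the median of the members, 47%, 51.8%, 38.3% and 51.4% of the 8614 shorter ones were lower, in the same order. For the 3703 longer ones the shares were 49%, 53.4%, 40.8% and 49.2%. With dCeMM-1, 9 members were lower and 8 higher, beside 14.8% and 16.5% of all genes, which is near the background share, and the median was 0.07 against 0.03 over all genes. The 8 became 5 without DMSO replicate 2. Every dCeMM-2 library lay below every DMSO library for 35 of the 44 (41.2% of all genes), and the same held for 37 with dCeMM-3 (44.5%), 33 with dCeMM-4 (36.1%) and 32 with THZ531 (43.8%). The summed counts of the 44 genes were 0.347% to 0.367% of gene counts in the DMSO and dCeMM-1 libraries and 0.197% to 0.247% in the other 12. All 5 comparisons share the 3 DMSO libraries.

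**Figure D1:**
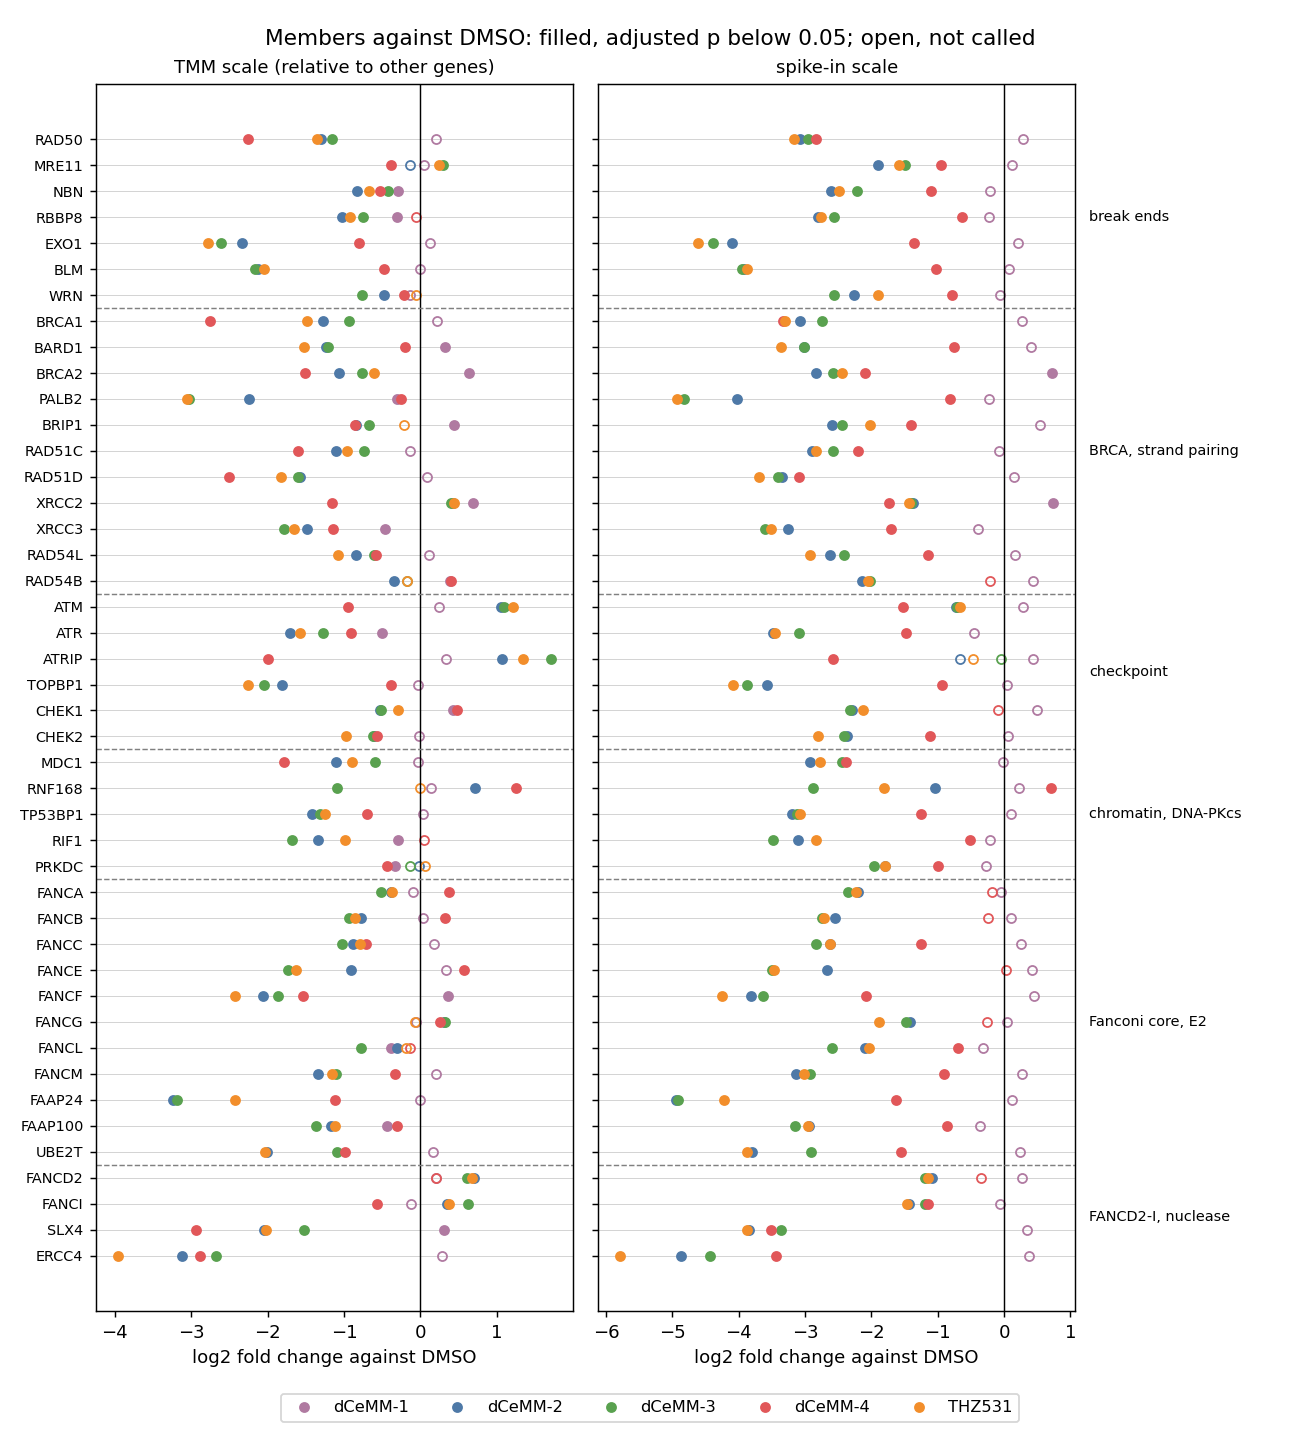
Log2 fold change against DMSO (x axis) of each of the 44 genes (rows, by role), on the TMM scale at left and the spike-in scale at right. Colours mark the compounds, filled points are called at an adjusted p below 0.05, and the dots right of 0 on the TMM scale for dCeMM-2, dCeMM-3 and THZ531, such as ATM and FANCD2, lie left of 0 on the spike-in scale.

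Against the spike-in, 43 members were lower with each of dCeMM-2, dCeMM-3 and THZ531, where 83%, 83.7% and 84.7% of all genes were, and 0 were higher, beside 1.48%, 1.12% and 1.32%. The median member stood at -2.82, -2.74 and -2.81, and the median of all genes at -1.80, -1.96 and -1.94. The exception in all 3 was ATRIP, which had the fewest reads of the 44 genes. With dCeMM-4, 36 were lower (48% of all genes) and 1, RNF168, was higher (6.3%), with a median of -1.13 against -0.56. With dCeMM-1, 0 members were lower on the spike-in scale (1.34% of all genes), so none of the 9 called lower on the TMM scale was called there. The 8 members higher on the TMM scale had spike-in values from 0.35 to 0.74. Against the spike-in 2 were higher (2.83% of all genes), BRCA2 and XRCC2, and the median was 0.14 against 0.10. Neither call was firm in edgeR: that of BRCA2 ended without dCeMM-1 replicate 2, dCeMM-1 replicate 3, DMSO replicate 1, DMSO replicate 2 or DMSO replicate 3 (adjusted p 0.112 to 0.262), and that of XRCC2 without dCeMM-1 replicate 1, dCeMM-1 replicate 2, dCeMM-1 replicate 3, DMSO replicate 1, DMSO replicate 2 or DMSO replicate 3 (adjusted p 0.0555 to 0.266).

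On the TMM scale the members differed in which compound lowered them most. PALB2 fell to 12.03% of its DMSO level with THZ531 on the TMM scale and stood at 84.01% with dCeMM-4, whereas BRCA1 fell to 14.8% with dCeMM-4 and SLX4 to 13.1%. Against the spike-in BRCA1 was alike with dCeMM-4 and THZ531, at 9.9% and 10.06%, and SLX4 was lower with dCeMM-2 than with dCeMM-4. ATM rose to 232% with THZ531 on the TMM scale, although it was lower on the spike-in scale at -0.67, and fell to 51.7% with dCeMM-4. The promoter strands of these 4 genes are shown as those of members that moved apart between compounds on the TMM scale. Each is the 250 bases before a RefSeq start on GRCh38.p14, 5′ to 3′ on the gene's strand. Capitals stand at the letters of 4 motifs searched on both strands. They are CCAAT, the letters read by NF-Y, and CCGGAAG, read by ETS factors. The others are the NRF1 letters, in which GCGC and TGCGC stand 1 base apart, and TTTGAA, the CHR element of cell cycle genes. The windows are chr17:43125365-43125614, chr16:23641311-23641560 and chr16:3611607-3611856 on the minus strand and chr11:108222817-108223066 on the plus strand.
BRCA1: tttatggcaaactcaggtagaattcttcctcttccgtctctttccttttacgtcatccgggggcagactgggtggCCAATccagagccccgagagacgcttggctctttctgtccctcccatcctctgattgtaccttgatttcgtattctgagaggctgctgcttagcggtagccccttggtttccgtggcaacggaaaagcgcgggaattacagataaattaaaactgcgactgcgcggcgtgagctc
PALB2: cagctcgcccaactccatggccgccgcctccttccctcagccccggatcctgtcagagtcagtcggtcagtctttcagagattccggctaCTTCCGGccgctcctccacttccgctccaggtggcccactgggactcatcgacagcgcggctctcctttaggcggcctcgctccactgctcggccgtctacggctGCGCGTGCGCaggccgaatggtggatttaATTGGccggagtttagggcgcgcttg
SLX4: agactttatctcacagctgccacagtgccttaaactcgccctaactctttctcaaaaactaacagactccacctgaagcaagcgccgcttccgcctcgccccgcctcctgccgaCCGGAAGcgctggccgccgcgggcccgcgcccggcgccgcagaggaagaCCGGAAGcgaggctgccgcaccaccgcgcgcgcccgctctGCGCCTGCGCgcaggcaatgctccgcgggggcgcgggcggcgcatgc
ATM: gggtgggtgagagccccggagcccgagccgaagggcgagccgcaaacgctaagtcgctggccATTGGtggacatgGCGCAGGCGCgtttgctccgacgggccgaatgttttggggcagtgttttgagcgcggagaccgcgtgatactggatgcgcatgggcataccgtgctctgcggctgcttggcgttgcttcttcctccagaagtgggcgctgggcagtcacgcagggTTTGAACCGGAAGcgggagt
PALB2 and ATM both hold the NF-Y, ETS and NRF1 letters and moved in opposite directions with THZ531 on the TMM scale. SLX4 holds the ETS letters at 2 places and the NRF1 letters at 1, and the BRCA1 strand holds, of the 4, only the NF-Y letters. In ATM the CHR letters adjoin the ETS letters. The ATM and BRCA1 windows lie inside the gene spans of the GENCODE annotation, downstream of its outermost starts. Of the 44 genes, 39 matched the promoter table, with 50 windows of 300 bases that reach 50 bases past the start. CCAAT stood in 48% of these windows, against 34.3% of the 14797 windows of tested genes. The ETS letters stood in 30% against 16.6% and the NRF1 letters in 14% against 9.78%. TTTGAA stood in 14% against 10.4% and the E2F letters TTTCCCGC in 6% against 2.42%. The other E2F form searched, TTTGGCGC, was in 0 of the 50, beside 1.01% of the windows of tested genes. The same was true of the last motif, a palindrome of TCTCGC followed at once by GAGA, beside 0.750%. Over all 35116 windows of the table the shares were 34.6% for the NF-Y letters, 10.3% for ETS, 5.78% for NRF1, 15.2% for TTTGAA, 1.63% and 0.652% for the E2F forms and 0.424% for the last palindrome. The median window of the set held 27 CG pairs, beside 25 for tested genes and 14 over the whole table. WRN, PRKDC, RAD54B, NBN and FANCI were not matched. A run of letters is a description of the window and not a bound site.

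**Figure D2:**
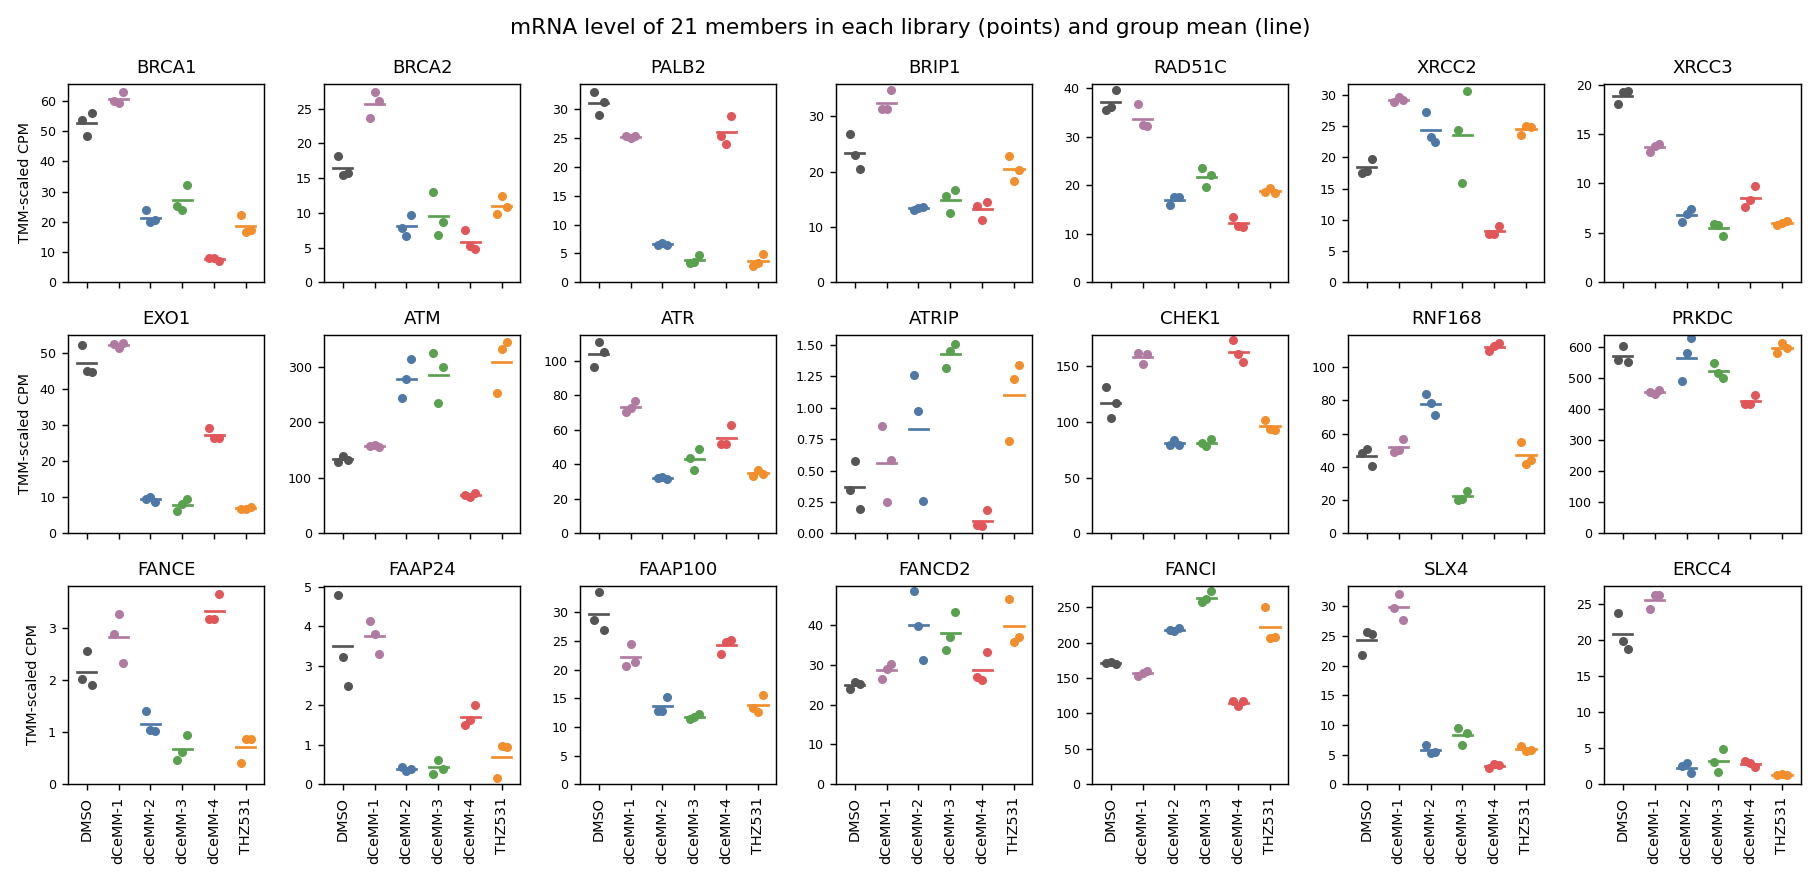
TMM-scaled CPM (y axis, from 0) in each of the 18 libraries for 21 members; points are libraries, lines are group means, and colours mark the 6 groups. PALB2 is low with dCeMM-2, dCeMM-3 and THZ531 and near DMSO with dCeMM-4, while BRCA1, ATM and XRCC2 are lowest with dCeMM-4.

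Among the 7 genes that open and trim break ends, RAD50, MRE11 and NBN form the complex that binds the ends, RBBP8 (CtIP) starts the trimming, EXO1 extends it as a nuclease, and BLM and WRN are helicases. With dCeMM-2, 6 of the 7 fell and 0 rose, beside 41.2% of all genes lower. With dCeMM-3, 6 fell and MRE11 rose (45.1% of all genes lower), with THZ531 5 fell and MRE11 rose (43.7%), and with dCeMM-4 6 fell (35.3%). The MRE11 rise held only relative to other genes: its log2 fold change was 0.30 (SE 0.07) with dCeMM-3 and 0.24 (SE 0.07) with THZ531 on the TMM scale, but -1.50 and -1.59 on the spike-in scale. EXO1 (chr1:241847967-241895148, plus strand, GRCh38) had the largest falls of the 7 with dCeMM-2, dCeMM-3 and THZ531. It was at 52.2, 45.1 and 44.9 CPM in the 3 DMSO libraries and 52.5, 51.5 and 52.8 CPM with dCeMM-1. It was at 9.43, 9.95 and 8.81 CPM with dCeMM-2, 6.18, 7.98 and 9.53 with dCeMM-3, 29.1, 26.3 and 26.6 with dCeMM-4 and 6.81, 6.67 and 7.25 with THZ531. No library of the last 4 groups reached the DMSO range, and the dCeMM-4 libraries lay between the DMSO libraries and the rest. EXO1 fell, with log2 changes of -2.33 (SE 0.11), -2.61 (SE 0.11) and -2.78 (SE 0.11) with dCeMM-2, dCeMM-3 and THZ531 in log2 units, and its change with dCeMM-4 was -0.80 (SE 0.09). BLM went the same way, with -2.13, -2.16, -2.05 and -0.47. RAD50 fell most with dCeMM-4, at -2.26 (SE 0.10), beside -1.30, -1.15 and -1.35 with dCeMM-2, dCeMM-3 and THZ531. Its 4 values on the spike-in scale, from -3.17 to -2.84, lay close together. RAD50 shares 7784 bases of exon with AC116366.3 on its own strand, which leaves its level uncertain. NBN fell with all 5 compounds on the TMM scale, from -0.29 with dCeMM-1 to -0.83 with dCeMM-2, and its dCeMM-1 spike-in value of -0.21 was not called. RBBP8 fell with dCeMM-1, dCeMM-2, dCeMM-3 and THZ531 on the TMM scale, from -0.30 to -1.02, and its dCeMM-1 spike-in value of -0.23 was not called. With dCeMM-4 RBBP8 was at -0.06 (SE 0.08), not called on the TMM scale but called lower on the spike-in scale, at -0.63. WRN fell with dCeMM-2, dCeMM-3 and dCeMM-4, from -0.22 to -0.76, and was at -0.06 (SE 0.07) with THZ531, where only the spike-in value of -1.90 was called.

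BRCA1 and its partner BARD1 form a ubiquitin ligase at breaks, PALB2 bridges BRCA1 to BRCA2, BRCA2 acts on the trimmed strand, and BRIP1 is a helicase bound to BRCA1. BRCA1 (chr17:43044295-43170245, minus strand) was at 53.7, 48.3 and 56.2 CPM in DMSO and 60.1, 59.3 and 62.98 CPM with dCeMM-1. It was at 23.8, 19.9 and 20.6 CPM with dCeMM-2, 25.3, 23.9 and 32.3 with dCeMM-3, 8.08, 8.11 and 7.07 with dCeMM-4 and 22.3, 16.7 and 17.3 with THZ531. The dCeMM-4 libraries were the lowest of the 18 and did not overlap those of any other group. BRCA1 fell, with log2 changes of -2.75 (SE 0.12) with dCeMM-4 (edgeR adjusted p = 4.68e-22), -1.28 (SE 0.11) with dCeMM-2, -0.94 (SE 0.10) with dCeMM-3 and -1.48 (SE 0.11) with THZ531. The 4 spike-in values were closer, at -3.34, -3.08, -2.75 and -3.31. PALB2 (chr16:23603160-23641310, minus strand) was at 32.9, 28.9 and 31.2 CPM in DMSO and 25.4, 24.9 and 25.3 with dCeMM-1. Its libraries read 6.39, 6.71 and 6.51 CPM with dCeMM-2, 3.29, 3.42 and 4.69 with dCeMM-3, 25.3, 23.9 and 28.8 with dCeMM-4 and 2.87, 3.33 and 4.89 with THZ531. The dCeMM-4 libraries lay just under the DMSO range, and those of dCeMM-2, dCeMM-3 and THZ531 were all below 7 CPM. PALB2 fell, with log2 changes of -2.24 (SE 0.13), -3.03 (SE 0.14) and -3.06 (SE 0.14) with dCeMM-2, dCeMM-3 and THZ531, while the falls of -0.25 (SE 0.10) with dCeMM-4 and -0.30 (SE 0.10) with dCeMM-1 were small. The dCeMM-4 call ended without dCeMM-4 replicate 1, dCeMM-4 replicate 2, DMSO replicate 1 or DMSO replicate 3 (adjusted p 0.0511 to 0.142), and the dCeMM-1 call without dCeMM-1 replicate 1, dCeMM-1 replicate 2, dCeMM-1 replicate 3 or DMSO replicate 1 (adjusted p 0.0532 to 0.124), by edgeR.

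BRCA2 (chr13:32315474-32400266, plus strand) was at 18.2, 15.4 and 15.7 CPM in DMSO and higher with dCeMM-1 at 23.6, 27.5 and 26.1 CPM. It was at 7.80, 6.63 and 9.70 CPM with dCeMM-2, 13.02, 6.74 and 8.66 with dCeMM-3, 7.46, 5.21 and 4.76 with dCeMM-4 and 9.77, 12.4 and 10.8 with THZ531. No library of these 4 groups reached the DMSO range, and the dCeMM-3 libraries overlapped those of the other 3 groups. BRCA2 rose by 0.64 (SE 0.14) with dCeMM-1 and fell, with log2 changes of -1.07 (SE 0.18), -0.76 (SE 0.17), -1.51 (SE 0.17) and -0.60 (SE 0.17) with dCeMM-2, dCeMM-3, dCeMM-4 and THZ531. BRIP1 was at 26.7, 22.96 and 20.5 CPM in DMSO and 31.4, 31.2 and 34.7 CPM with dCeMM-1, with no overlap. It was at 13.1, 13.3 and 13.5 CPM with dCeMM-2, 15.5, 12.5 and 16.7 with dCeMM-3, 13.7, 11.3 and 14.4 with dCeMM-4 and 22.8, 18.3 and 20.3 with THZ531. The THZ531 libraries overlapped DMSO and the other 3 groups lay below it. BRIP1 rose by 0.44 (SE 0.10) with dCeMM-1, fell, with log2 changes of -0.84 (SE 0.12), -0.67 (SE 0.11) and -0.86 (SE 0.11) with dCeMM-2, dCeMM-3 and dCeMM-4, and was at -0.22 (SE 0.11) with THZ531, not called there but lower on the spike-in scale, at -2.02. BARD1 fell with dCeMM-2, dCeMM-3 and THZ531 (-1.24, -1.21 and -1.52). Its dCeMM-4 value of -0.20 (SE 0.09) was called and ended without dCeMM-4 replicate 1, dCeMM-4 replicate 2, DMSO replicate 1 or DMSO replicate 3 (adjusted p 0.0671 to 0.235), and its rise of 0.32 (SE 0.09) with dCeMM-1 ended without DMSO replicate 2 (adjusted p = 0.0529), by edgeR.

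RAD51C, RAD51D, XRCC2 and XRCC3 act in complexes on single-stranded DNA during strand pairing, and they did not move as a block. XRCC2 was at 17.5, 17.9 and 19.7 CPM in DMSO and 28.9, 29.7 and 29.1 CPM with dCeMM-1. It was at 27.3, 23.2 and 22.5 CPM with dCeMM-2, 24.3, 15.96 and 30.7 with dCeMM-3, 7.71, 7.76 and 9.02 with dCeMM-4 and 23.6, 25 and 24.9 with THZ531. The dCeMM-4 libraries were the lowest of the 18, and the dCeMM-3 libraries spread across the DMSO range. On the TMM scale XRCC2 rose by 0.69 (SE 0.13) with dCeMM-1 and by 0.43 (SE 0.13), 0.40 (SE 0.13) and 0.44 (SE 0.13) with dCeMM-2, dCeMM-3 and THZ531, and for these last 3 compounds it was lower on the spike-in scale, at -1.37, -1.41 and -1.43. It fell, with a log2 change of -1.15 (SE 0.15) with dCeMM-4. The dCeMM-3 call ended without dCeMM-3 replicate 3 (adjusted p = 0.162), by edgeR. RAD51C was at 35.5, 36.1 and 39.5 CPM in DMSO and 36.6, 32.3 and 32.1 CPM with dCeMM-1, which overlapped. It was at 15.8, 17.6 and 17.6 CPM with dCeMM-2, 23.6, 19.6 and 22.1 with dCeMM-3, 13.4, 11.6 and 11.3 with dCeMM-4 and 18.6, 19.5 and 18.3 with THZ531. All 12 of these libraries lay under the DMSO range, those of dCeMM-4 lowest. RAD51C fell, with log2 changes of -1.11 (SE 0.10), -0.74 (SE 0.09), -1.60 (SE 0.10) and -0.96 (SE 0.10) in that order. Its spike-in values were -2.90, -2.58, -2.20 and -2.83, so on that scale RAD51C fell least with dCeMM-4. RAD51D fell most with dCeMM-4 on the TMM scale, at -2.51 (SE 0.12), and was at -1.57, -1.60 and -1.83 with dCeMM-2, dCeMM-3 and THZ531. Against the spike-in RAD51D fell least with dCeMM-4, at -3.09, beside -3.35, -3.41 and -3.70 with the same 3 compounds. RAD51D shares 1003 bases of exon in all with RAD51L3-RFFL and RF00006, annotated on its own strand, which leaves its level uncertain. XRCC3 was at 17.99, 19.2 and 19.4 CPM in DMSO and 13.2, 13.8 and 14 CPM with dCeMM-1. It was at 6.09, 6.88 and 7.40 CPM with dCeMM-2, 5.92, 5.80 and 4.69 with dCeMM-3, 7.58, 8.29 and 9.69 with dCeMM-4 and 5.83, 5.96 and 6.15 with THZ531. Every treated library was below DMSO, and XRCC3 fell, with log2 changes of -0.46 (SE 0.11) with dCeMM-1, -1.48 (SE 0.12) with dCeMM-2, -1.78 (SE 0.13) with dCeMM-3, -1.14 (SE 0.11) with dCeMM-4 and -1.65 (SE 0.13) with THZ531. Its dCeMM-1 spike-in value of -0.4 was not called. XRCC3 overlaps KLC1 on the opposite strand over 5756 bases of exon. The strand setting of the counting is not given in the sources used here, so whether reads of the pair were told apart is not known. The RAD54 translocases remodel DNA during strand pairing: RAD54L fell with dCeMM-2, dCeMM-3, dCeMM-4 and THZ531, from -0.58 with dCeMM-4 to -1.08 with THZ531. RAD54B was at -0.35 (SE 0.15) with dCeMM-2 and rose on the TMM scale by 0.40 (SE 0.13) with dCeMM-4, where it was -0.22 on the spike-in scale and not called. These calls ended without dCeMM-2 replicate 1, dCeMM-2 replicate 2 or DMSO replicate 3 (adjusted p 0.0729 to 0.078) for dCeMM-2 and without dCeMM-4 replicate 1 (adjusted p = 0.119) for dCeMM-4, by edgeR. Its rise of 0.39 (SE 0.13) with dCeMM-1 ended without dCeMM-1 replicate 3, DMSO replicate 1 or DMSO replicate 2 (adjusted p 0.0631 to 0.101). RAD54B shares 3139 bases of exon with FSBP.

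The checkpoint kinases read the damage: ATM responds to breaks, ATR with its partner ATRIP and the activator TOPBP1 responds to single-stranded DNA, and CHEK1 and CHEK2 pass the signal on. ATM (chr11:108222484-108369102, plus strand, 63 exons) was at 128, 139 and 132 CPM in DMSO and 157, 159 and 156 CPM with dCeMM-1. It was at 244, 278 and 313 CPM with dCeMM-2, 325, 234 and 298 with dCeMM-3, 68.6, 65.1 and 72.9 with dCeMM-4 and 252, 331 and 344 with THZ531. The dCeMM-4 libraries lay below the DMSO range and the libraries of dCeMM-2, dCeMM-3 and THZ531 all lay above it. On the TMM scale ATM rose by 1.06 (SE 0.12) with dCeMM-2, 1.10 (SE 0.12) with dCeMM-3 and 1.21 (SE 0.12) with THZ531, and on the spike-in scale it was lower in all 3, at -0.73, -0.71 and -0.67. With dCeMM-4 it fell on both scales, to -0.95 (SE 0.12) and -1.53. ATR (chr3:142449235-142578826, minus strand) was at 96.1, 111 and 105 CPM in DMSO and 70.2, 72.8 and 76.8 CPM with dCeMM-1. It was at 32.01, 32.8 and 31.4 CPM with dCeMM-2, 43.4, 36.7 and 48.8 with dCeMM-3, 51.9, 51.6 and 62.6 with dCeMM-4 and 33.1, 36.8 and 34.5 with THZ531. All 15 treated libraries were below DMSO. ATR fell, with log2 changes of -0.50 (SE 0.08), -1.70 (SE 0.09), -1.27 (SE 0.09), -0.91 (SE 0.08) and -1.58 (SE 0.09) with dCeMM-1 to dCeMM-4 and THZ531. Its dCeMM-1 spike-in value of -0.45 was not called. ATR overlaps AC109992.1 on the opposite strand over 2048 bases. CHEK1 was at 131, 103 and 117 CPM in DMSO and 162, 152 and 161 CPM with dCeMM-1. It was at 78.9, 84.04 and 79.3 CPM with dCeMM-2, 81.5, 78.1 and 84.8 with dCeMM-3, 174, 161 and 154 with dCeMM-4 and 102, 93.3 and 92.6 with THZ531. The dCeMM-1 and dCeMM-4 libraries lay above DMSO and the others below it. CHEK1 fell, with log2 changes of -0.53 (SE 0.08), -0.52 (SE 0.08) and -0.29 (SE 0.08) with dCeMM-2, dCeMM-3 and THZ531, and rose on the TMM scale by 0.48 (SE 0.07) with dCeMM-4, where the spike-in value was -0.09 and not called. Its rise with dCeMM-1 was 0.43 (SE 0.07).

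TOPBP1 fell, with log2 changes of -1.81 (SE 0.07), -2.04 (SE 0.07) and -2.25 (SE 0.07) with dCeMM-2, dCeMM-3 and THZ531, and was at -0.38 (SE 0.07) with dCeMM-4. CHEK2 fell with these 4 compounds, from -0.57 with dCeMM-4 to -0.97 with THZ531. ATRIP was the scarcest member, with 6, 11 and 1 reads in the DMSO libraries, or 0.347, 0.574 and 0.192 CPM. It was at 0.853, 0.248 and 0.586 CPM with dCeMM-1, 1.26, 0.971 and 0.255 with dCeMM-2, 1.31, 1.45 and 1.51 with dCeMM-3, 0.0622, 0.0580 and 0.183 with dCeMM-4 and 0.739, 1.23 and 1.34 with THZ531. The dCeMM-2 libraries overlapped DMSO and those of dCeMM-3 and THZ531 did not. No DMSO or dCeMM-4 library met the count level of the filter, whereas those of dCeMM-3, with 20, 14 and 19 reads, did. A higher level than in DMSO and dCeMM-4 was thus a condition of ATRIP being tested, and its rises over them are not independent of the filter. On the TMM scale ATRIP rose by 1.07 (SE 0.49), 1.71 (SE 0.44) and 1.35 (SE 0.47) with dCeMM-2, dCeMM-3 and THZ531, whereas its spike-in values were -0.66, -0.05 and -0.47, none called, and it fell, with a log2 change of -2.0 (SE 0.71) with dCeMM-4. The dCeMM-2 call ended without dCeMM-2 replicate 1, dCeMM-2 replicate 2, DMSO replicate 1 or DMSO replicate 3 (adjusted p 0.0869 to 0.309), the dCeMM-4 call on the TMM scale without dCeMM-4 replicate 2 or DMSO replicate 2 (adjusted p 0.0538 to 0.133), and that on the spike-in scale without DMSO replicate 2 (adjusted p = 0.0654), by edgeR. Without dCeMM-4 replicate 3 the ATRIP value with dCeMM-4 was -2.66 and -3.33 on the spike-in scale. ATRIP shares 1515 bases of exon with TREX1 on the same strand, which leaves its level uncertain.

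Chromatin beside a break is marked by MDC1, RNF168 and TP53BP1 (53BP1), RIF1 acts with 53BP1 to hold back end trimming, and PRKDC encodes DNA-PKcs, the kinase of end joining. RNF168 was the member that differed most between dCeMM-2 and dCeMM-3. It was at 48.2, 50.7 and 40.2 CPM in DMSO and 49.1, 49.9 and 56.7 CPM with dCeMM-1. It was at 83.6, 78.1 and 71.2 CPM with dCeMM-2, 19.99, 20.8 and 25.6 with dCeMM-3, 109.5, 113 and 115 with dCeMM-4 and 55.2, 41.4 and 44.1 with THZ531. The dCeMM-4 libraries were the highest of the 18 and the dCeMM-3 libraries the lowest, without overlap with any other group. RNF168 rose by 1.25 (SE 0.09) with dCeMM-4 on the TMM scale and by 0.71 on the spike-in scale, and fell, with a log2 change of -1.09 (SE 0.11) with dCeMM-3. With dCeMM-2 it rose by 0.72 (SE 0.10) on the TMM scale and was lower on the spike-in scale, at -1.04, and with THZ531 it was at -0.01 (SE 0.10), not called, with a spike-in value of -1.81 that was. PRKDC, whose coding transcript has 86 exons, the most of the 44, was at 558, 602 and 549 CPM in DMSO and 454, 448 and 459.6 CPM with dCeMM-1. It was at 488, 578 and 628 CPM with dCeMM-2, 548, 513 and 499.7 with dCeMM-3, 414, 415 and 445 with dCeMM-4 and 580.4, 613 and 595 with THZ531. The dCeMM-2 and THZ531 libraries overlapped DMSO, the dCeMM-3 libraries lay just below it, and those of dCeMM-1 and dCeMM-4 lay well below. PRKDC fell, with log2 changes of -0.33 (SE 0.07) with dCeMM-1 and -0.43 (SE 0.07) with dCeMM-4, and was not called with dCeMM-2, dCeMM-3 or THZ531, at -0.02 (SE 0.07), -0.13 (SE 0.07) and 0.06 (SE 0.07). The 95% interval of the THZ531 value ran from -0.08 to 0.21. On the spike-in scale PRKDC was called lower with these 3, at -1.80, -1.96 and -1.79, and was not called with dCeMM-1, at -0.27. MDC1 fell most with dCeMM-4 on the TMM scale, at -1.78 (SE 0.17), beside -1.10, -0.59 and -0.89 with dCeMM-2, dCeMM-3 and THZ531. Against the spike-in MDC1 fell least with dCeMM-4, at -2.39, beside -2.93, -2.45 and -2.78. TP53BP1 fell, with log2 changes of -1.42, -1.31, -0.70 and -1.25 with dCeMM-2, dCeMM-3, dCeMM-4 and THZ531. It overlaps TUBGCP4 on the opposite strand over 3732 bases. RIF1 fell with dCeMM-1, dCeMM-2, dCeMM-3 and THZ531 on the TMM scale, from -0.29 to -1.68, and was at 0.05 (SE 0.07) with dCeMM-4, not called. Its dCeMM-1 spike-in value of -0.22 was not called. RIF1 was called lower with dCeMM-4 on the spike-in scale, at -0.52, and that call ended without dCeMM-4 replicate 1, DMSO replicate 2 or DMSO replicate 3 (adjusted p 0.0577 to 0.094), by edgeR.

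In the Fanconi core, FANCA, FANCB, FANCC, FANCE, FANCF, FANCG and FANCL with FAAP100 assemble the ubiquitin ligase, FANCM and FAAP24 anchor it on DNA, and UBE2T supplies the ubiquitin. Of these 11 genes, dCeMM-2 and dCeMM-3 each lowered 10 (41.2% and 45.1% of all genes) and THZ531 lowered 9 (43.7%), and FANCG rose with dCeMM-2 and dCeMM-3 on the TMM scale. With dCeMM-4, 6 fell and 4 rose on that scale, beside 35.3% and 32.9% of all genes: FANCA, FANCB, FANCE and FANCG, by 0.38, 0.32, 0.57 and 0.26. Their spike-in values were -0.18, -0.25, 0.03 and -0.26, none called. FAAP24 was at 4.80, 3.24 and 2.49 CPM in DMSO and 4.13, 3.82 and 3.30 CPM with dCeMM-1. It was at 0.446, 0.324 and 0.383 CPM with dCeMM-2, 0.263, 0.622 and 0.397 with dCeMM-3, 1.49, 1.62 and 2.01 with dCeMM-4 and 0.164, 0.965 and 0.946 with THZ531. All libraries of these 4 groups were below DMSO, and those of dCeMM-4 were above the other 3 groups. FAAP24 fell, with log2 changes of -3.24 (SE 0.37), -3.19 (SE 0.36), -1.12 (SE 0.25) and -2.42 (SE 0.32). FANCE, also scarce, was at 2.02, 2.56 and 1.92 CPM in DMSO and 2.89, 3.27 and 2.34 CPM with dCeMM-1. It was at 1.41, 1.05 and 1.02 CPM with dCeMM-2, 0.460, 0.622 and 0.953 with dCeMM-3, 3.17, 3.19 and 3.66 with dCeMM-4 and 0.410, 0.877 and 0.867 with THZ531. Libraries of dCeMM-2, dCeMM-3 and THZ531 lay below DMSO and those of dCeMM-4 above it. FANCE fell, with log2 changes of -0.91 (SE 0.29), -1.73 (SE 0.31) and -1.63 (SE 0.31), and its dCeMM-4 rise ended without dCeMM-4 replicate 3 or DMSO replicate 1 (adjusted p 0.0705 to 0.0984), by edgeR. FAAP100 was at 28.6, 33.6 and 27.02 CPM in DMSO and 20.7, 24.5 and 21.3 CPM with dCeMM-1. It was at 12.8, 12.8 and 15.2 CPM with dCeMM-2, 11.3, 11.8 and 12.3 with dCeMM-3, 22.8, 24.9 and 25.1 with dCeMM-4 and 13.4, 12.6 and 15.6 with THZ531. All 15 treated libraries were below DMSO, those of dCeMM-4 nearest to it. FAAP100 fell, with log2 changes of -0.44 (SE 0.10), -1.17 (SE 0.11), -1.36 (SE 0.11), -0.31 (SE 0.10) and -1.12 (SE 0.11) with dCeMM-1 to dCeMM-4 and THZ531, and the dCeMM-4 call ended without DMSO replicate 2 (adjusted p = 0.0959), by edgeR.

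FANCF, a gene of a single exon, fell, with log2 changes of -2.06 (SE 0.17), -1.86 (SE 0.16), -1.53 (SE 0.14) and -2.43 (SE 0.17) with dCeMM-2, dCeMM-3, dCeMM-4 and THZ531. Its rise of 0.36 (SE 0.12) with dCeMM-1 ended without dCeMM-1 replicate 1, dCeMM-1 replicate 2, DMSO replicate 2 or DMSO replicate 3 (adjusted p 0.0522 to 0.079), by edgeR. UBE2T fell, with log2 changes of -2.01 (SE 0.13) with dCeMM-2 and -2.03 (SE 0.12) with THZ531, and was at -1.09 (SE 0.11) with dCeMM-3 and -0.98 (SE 0.11) with dCeMM-4. FANCM fell with the same compounds, from -0.33 with dCeMM-4, a call that ended without DMSO replicate 1 (adjusted p = 0.0566) by edgeR, to -1.34 with dCeMM-2. FANCC fell, with log2 changes of -0.88, -1.02, -0.71 and -0.79. FANCA and FANCB fell, with log2 changes of -0.39 and -0.78 with dCeMM-2, -0.51 and -0.94 with dCeMM-3 and -0.37 and -0.86 with THZ531. FANCA overlaps ZNF276 on the opposite strand over 2302 bases. FANCL fell, with log2 changes of -0.39 with dCeMM-1, -0.31 with dCeMM-2 and -0.78 with dCeMM-3, and was at -0.19 (SE 0.10) with THZ531 and -0.13 (SE 0.09) with dCeMM-4, neither called. FANCG was at 0.31 (SE 0.11) with dCeMM-2 and 0.32 (SE 0.11) with dCeMM-3 on the TMM scale, but at -1.42 and -1.48 on the spike-in scale. These calls ended without dCeMM-2 replicate 2 or DMSO replicate 3 (adjusted p 0.0552 to 0.0665) for dCeMM-2 and without dCeMM-3 replicate 2 (adjusted p = 0.059) for dCeMM-3, and that of dCeMM-4 without dCeMM-4 replicate 2, dCeMM-4 replicate 3, DMSO replicate 1 or DMSO replicate 3 (adjusted p 0.062 to 0.136), by edgeR.

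With dCeMM-2, dCeMM-3 and THZ531 the substrates of the core complex rose and the nuclease genes fell relative to other genes, while against the spike-in both were lower. FANCD2 (chr3:10026414-10101930, plus strand) was at 23.9, 25.7 and 25.1 CPM in DMSO and 26.5, 28.97 and 30.3 CPM with dCeMM-1. It was at 48.6, 39.7 and 31.3 CPM with dCeMM-2, 33.8, 37.1 and 43.1 with dCeMM-3, 26.98, 26.2 and 33.2 with dCeMM-4 and 46.6, 35.6 and 36.9 with THZ531. All treated libraries were above DMSO, and the spread within dCeMM-2 was wide. On the TMM scale FANCD2 rose by 0.70 (SE 0.13), 0.61 (SE 0.13) and 0.68 (SE 0.13) with dCeMM-2, dCeMM-3 and THZ531, and on the spike-in scale it was lower, at -1.09, -1.2 and -1.15. It was not called with dCeMM-1 at 0.20 (SE 0.13) or dCeMM-4 at 0.21 (SE 0.13). FANCI, its partner (chr15:89243949-89317261, plus strand), was at 171, 172 and 170.2 CPM in DMSO and 153, 157 and 160.4 CPM with dCeMM-1. It was at 218, 216 and 221 CPM with dCeMM-2, 257, 261 and 272 with dCeMM-3, 117, 111 and 118 with dCeMM-4 and 251, 207 and 208 with THZ531. The dCeMM-4 libraries were the lowest of the 18 and the dCeMM-3 libraries the highest. FANCI rose on the TMM scale by 0.35 (SE 0.07), 0.62 (SE 0.07) and 0.38 (SE 0.07) with dCeMM-2, dCeMM-3 and THZ531 and was lower on the spike-in scale, at -1.44, -1.2 and -1.46. With dCeMM-4 it fell on both scales, to -0.57 (SE 0.07) and -1.14.

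ERCC4 (XPF), the nuclease that cuts beside a crosslink, had the largest fall of any member with THZ531. Its level (chr16:13920157-13952345, plus strand) was 23.8, 19.9 and 18.8 CPM in DMSO and 24.3, 26.3 and 26.2 CPM with dCeMM-1. It was at 2.52, 2.91 and 1.53 CPM with dCeMM-2, 3.09, 1.76 and 4.85 with dCeMM-3, 3.23, 3.01 and 2.38 with dCeMM-4 and 1.31, 1.40 and 1.34 with THZ531. Each of these 12 libraries was under 5 CPM and no DMSO library was under 18 CPM. ERCC4 fell, with log2 changes of -3.96 (SE 0.20) with THZ531 (edgeR adjusted p = 5.13e-20), -3.12 (SE 0.19) with dCeMM-2, -2.67 (SE 0.17) with dCeMM-3 and -2.88 (SE 0.16) with dCeMM-4. It overlaps AC010401.1 on the opposite strand over 2174 bases. SLX4, the scaffold of crosslink nucleases, was at 21.8, 25.6 and 25.3 CPM in DMSO and 29.8, 32 and 27.7 CPM with dCeMM-1. It was at 6.61, 5.34 and 5.49 CPM with dCeMM-2, 9.47, 6.63 and 8.66 with dCeMM-3, 2.80, 3.36 and 3.23 with dCeMM-4 and 6.49, 5.53 and 5.75 with THZ531. The dCeMM-4 libraries were again the lowest on the TMM scale, while against the spike-in SLX4 was lower with dCeMM-2 than with dCeMM-4. SLX4 fell, with log2 changes of -2.04 (SE 0.13), -1.52 (SE 0.12), -2.94 (SE 0.13) and -2.02 (SE 0.13) with dCeMM-2, dCeMM-3, dCeMM-4 and THZ531, and its rise of 0.31 (SE 0.10) with dCeMM-1 ended without dCeMM-1 replicate 2 or DMSO replicate 1 (adjusted p 0.102 to 0.137), by edgeR.

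The 3 cyclin K compounds were compared at 10 times EC50 each, in 3 pairs, with p adjusted over the 15055 genes of a pair. Between dCeMM-2 and dCeMM-3, 6 members were higher and 10 lower with dCeMM-2 (26.6% and 16.5% of all genes), which left 28 not called. RNF168 differed most, by 1.82 (SE 0.10), ahead of PALB2 at 0.78 (SE 0.17), FANCL at 0.47 and RIF1 at 0.34. UBE2T was lower with dCeMM-2, at -0.92 (SE 0.14), SLX4 at -0.52, MDC1 at -0.51 and MRE11 at -0.43. Of these, the SLX4 call ended without dCeMM-3 replicate 1 (adjusted p = 0.0594) and the MDC1 call without dCeMM-2 replicate 2 or dCeMM-3 replicate 3 (adjusted p 0.0716 to 0.0733), by edgeR. Between dCeMM-2 and dCeMM-4, 14 were higher and 23 lower with dCeMM-2 (38.4% and 38.9%). Those furthest above were ATRIP at 3.07 (SE 0.63), ATM at 2.01 (SE 0.12), XRCC2 at 1.58 (SE 0.14) and BRCA1 at 1.47 (SE 0.13). Those furthest below were FAAP24 at -2.12 (SE 0.42), PALB2 at -1.99 (SE 0.13), BLM at -1.67 (SE 0.11) and EXO1 at -1.53 (SE 0.11). Between dCeMM-3 and dCeMM-4, 14 were higher and 22 lower with dCeMM-3 (41.5% and 41.2%). ATRIP, ATM, BRCA1 and XRCC2 were higher by 3.71, 2.05, 1.81 and 1.55. PALB2, RNF168, FANCE and FAAP24 were lower, at -2.77, -2.34, -2.30 and -2.06. Without dCeMM-4 replicate 3 the ATRIP differences were 3.73 for dCeMM-2 and 4.37 for dCeMM-3. ATRIP met the count level of the filter in no dCeMM-4 library, so these differences are not independent of the filter. In the Fanconi core 8 of 11 genes were lower and 0 higher with dCeMM-2 than with dCeMM-4, and 8 lower and 0 higher with dCeMM-3. FANCD2, FANCI and SLX4 were higher in both of these pairs on the TMM scale, and the FANCD2 call for dCeMM-3 against dCeMM-4 ended without dCeMM-3 replicate 3 (adjusted p = 0.0502), by edgeR. ERCC4 was not called in any pair, and the 95% intervals of its differences ran from -1.0 to 0.09, -0.78 to 0.29 and -0.28 to 0.69. For FANCG they ran from -0.24 to 0.23, -0.18 to 0.28 and -0.17 to 0.29. These differences are relative to other genes. Against DMSO on the spike-in scale, RAD50 stood at -3.08 with dCeMM-2 and -2.84 with dCeMM-4, SLX4 at -3.84 and -3.52, FANCD2 at -1.09 and -0.35, and FANCI at -1.44 and -1.14. For these 4 the order of the pair was turned from the TMM differences of 0.96, 0.90, 0.49 and 0.92. In all, 10 of the 14 members called higher with dCeMM-2 than with dCeMM-4 were turned in this way, the other 6 being RAD51D, RAD51C, BRCA2, MRE11, MDC1 and PRKDC, and ATM, ATRIP, BRCA1 and XRCC2 kept their order. Of the 14 called higher with dCeMM-3 than with dCeMM-4, 9 were turned, and these 4 and SLX4 kept their order. All 23 and 22 members called lower in these pairs kept theirs. Going from the TMM to the spike-in scale moved the median of all genes by -0.57 under dCeMM-4. For dCeMM-2 the move was -1.78, and for dCeMM-3 it was -1.81. A shift shared by all genes can only widen the differences of members lower than under dCeMM-4. It turns the higher members whose TMM difference is small. Which members kept or turned their order therefore follows from this shift and gives no separate evidence on single genes. The spike-in differences between compounds were not tested.

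**Figure D3:**
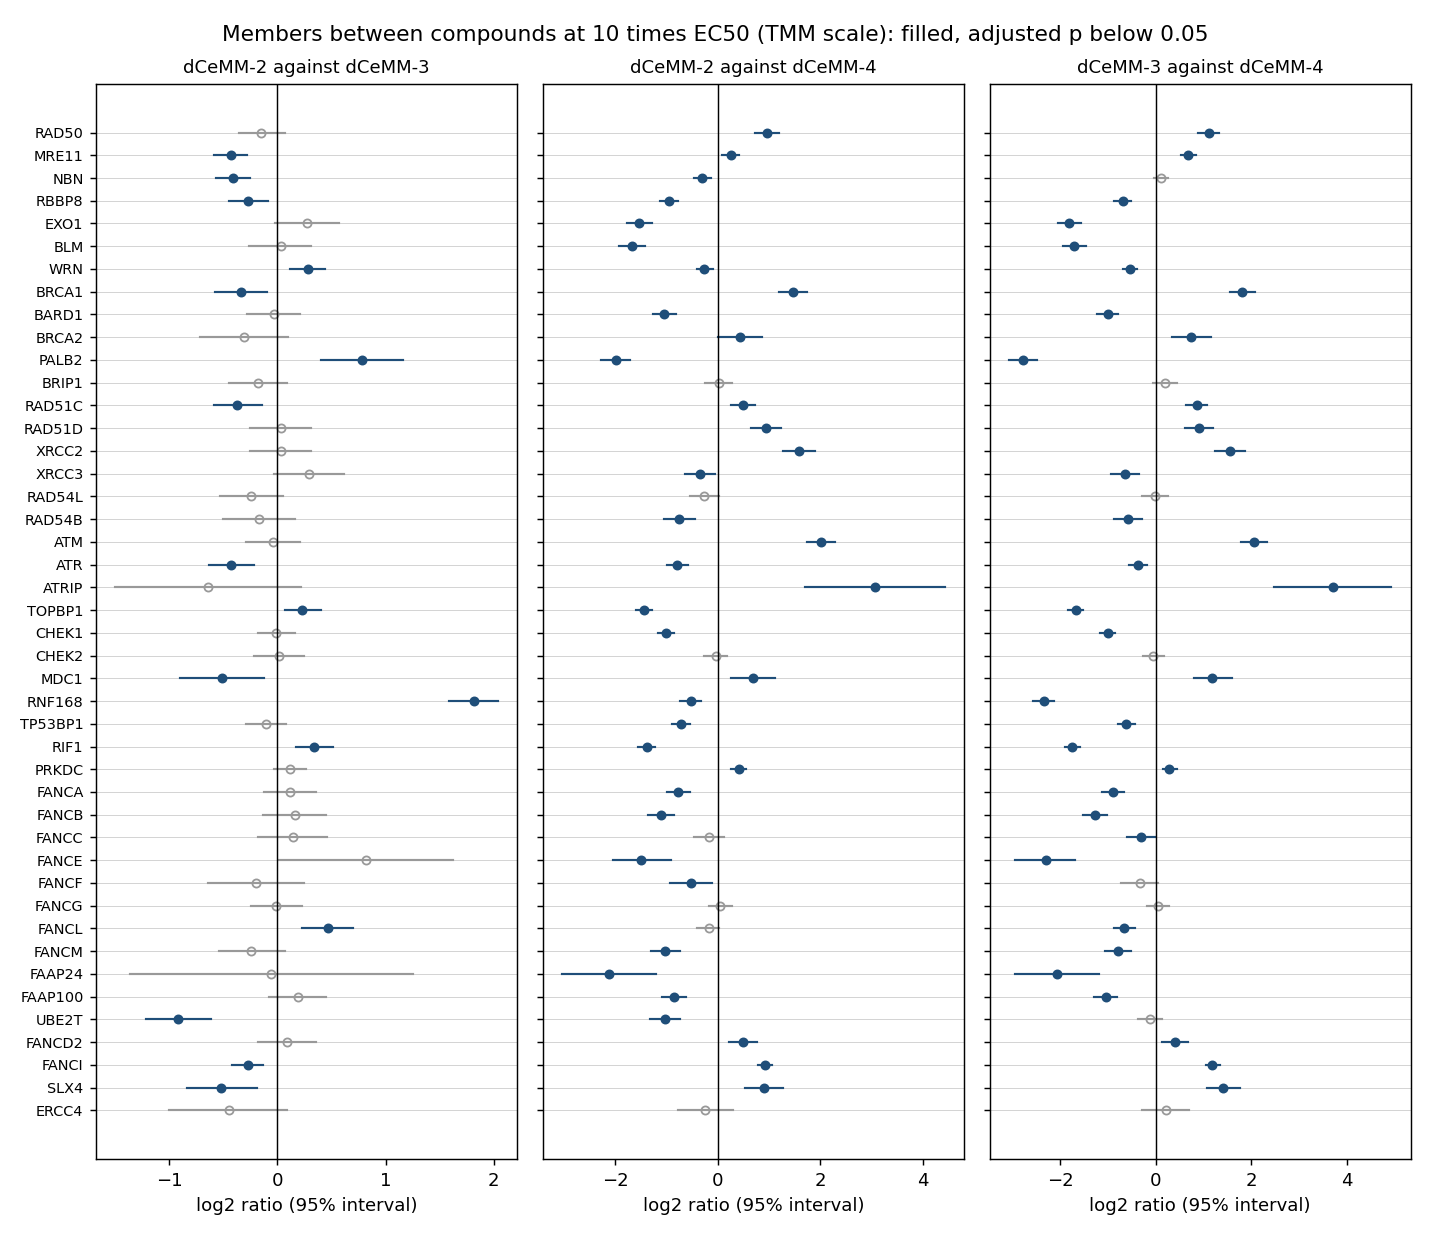
Log2 ratio between compounds (x axis, TMM scale, 95% intervals as bars) for each of the 44 genes (rows); filled points have an adjusted p below 0.05. ATM, BRCA1 and XRCC2 lie right of 0 against dCeMM-4 in both panels that hold it, PALB2, EXO1 and BLM lie left of 0, and dCeMM-2 and dCeMM-3 differ most in RNF168.

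Levels can be compared between genes only per length, as CPM per kb of annotated exon. The length is that of all annotated exons merged, which for some members far exceeds the coding transcript. It is 6558 against 1670 bases in CHEK1, 11304 against 1528 in RAD51D and 12809 against 4592 in FANCC. The order of genes given here holds for this length and can change with another. In DMSO the set ran from 56.3 ± 5.92 CPM per kb (SD, n = 3) for NBN, 36.95 ± 1.83 for PRKDC and 34.7 ± 2.18 for TOPBP1 down to 1.01 ± 0.150 for FANCC, 0.805 ± 0.127 for FANCE and 0.0683 ± 0.0354 for ATRIP. NBN stood above PRKDC by more than their spread, and PRKDC and TOPBP1 did not differ beyond theirs. FANCI (22.01 ± 0.122) and CHEK1 (17.9 ± 2.14) were also in the upper part. BRCA1 (5.74 ± 0.439), ATM (5.56 ± 0.224) and PALB2 (6.54 ± 0.423) were mid-range, and BRCA2 (1.34 ± 0.126), SLX4 (2.82 ± 0.246) and ERCC4 (2.46 ± 0.309) were low. Over the 44 genes Spearman's rho of the log2 fold change with the mean DMSO level in CPM was 0.02 with dCeMM-2, 0.05 with dCeMM-3, 0.17 with dCeMM-4, 0.08 with THZ531 and -0.39 with dCeMM-1. These are descriptions across genes, which share libraries and are not replicates, and the DMSO level enters both measures. Over the 12317 protein-coding genes with a value the dCeMM-1 rho was -0.24.

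Gene span and exon number varied widely within the set, from 2.95 kb and 1 exon in FANCF to 327.7 kb in FANCC and 86 exons in PRKDC. Across the 44 genes the log2 fold change rose weakly with span: Spearman's rho was 0.22 with dCeMM-2, 0.24 with dCeMM-3, 0.17 with dCeMM-4 and 0.32 with THZ531 and -0.07 with dCeMM-1. Over the 12317 protein-coding genes the values were -0.07, -0.03, -0.06, 0.00 and 0.07. With exon number rho was 0.20, 0.30, 0.11 and 0.29 over the members for the first 4 and -0.20 with dCeMM-1. Over the protein-coding genes they were 0.00, 0.07, -0.10 and 0.06 and -0.09 with dCeMM-1. Split by exon number, the 22 members with at most 15 exons had medians of -1.11, -1.09, -0.85 and -1.04 with dCeMM-2, dCeMM-3, dCeMM-4 and THZ531, and the 22 with more had -0.93, -0.75, -0.55 and -0.95. In single THZ531 libraries the medians of these 2 sets overlapped, at -1.05, -1.05 and -0.93 against -0.83, -0.93 and -0.95. The 22 members of at most 64.2 kb had a median change of -1.14 with dCeMM-2, -1.22 with dCeMM-3, -0.89 with dCeMM-4 and -1.37 with THZ531. The 22 longer ones had medians of -0.86, -0.76, -0.45 and -0.63. Over protein-coding genes split at the same length, the 8614 shorter ones had medians of -0.20, -0.37, -0.03 and -0.35 and the 3703 longer ones -0.24, -0.42, -0.08 and -0.24. In the 3 THZ531 libraries taken singly, the shorter members' median changes from the DMSO mean were -1.33, -1.17 and -1.0, and those of the longer members -0.62, -0.57 and -0.62, so the medians of the shorter and longer members did not overlap, while single members of the 2 sets overlapped widely. Both kinds were lower against the spike-in, with medians of -3.21 and -2.47 with THZ531. ATM, with 146.6 kb and 63 exons, went with the trend and rose with THZ531 on the TMM scale (1.21, spike-in -0.67). Other single genes depart from it. ATR, with 129.6 kb and 47 exons, fell with THZ531, with a log2 change of -1.58. FANCC, the longest, fell, with a log2 change of -0.79, and FANCG, with 6.18 kb and 14 exons, was at -0.07 and not called (spike-in -1.88, called lower). BRCA1, with 126 kb, was among the largest falls with dCeMM-4 (-2.75).

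**Figure D4:**
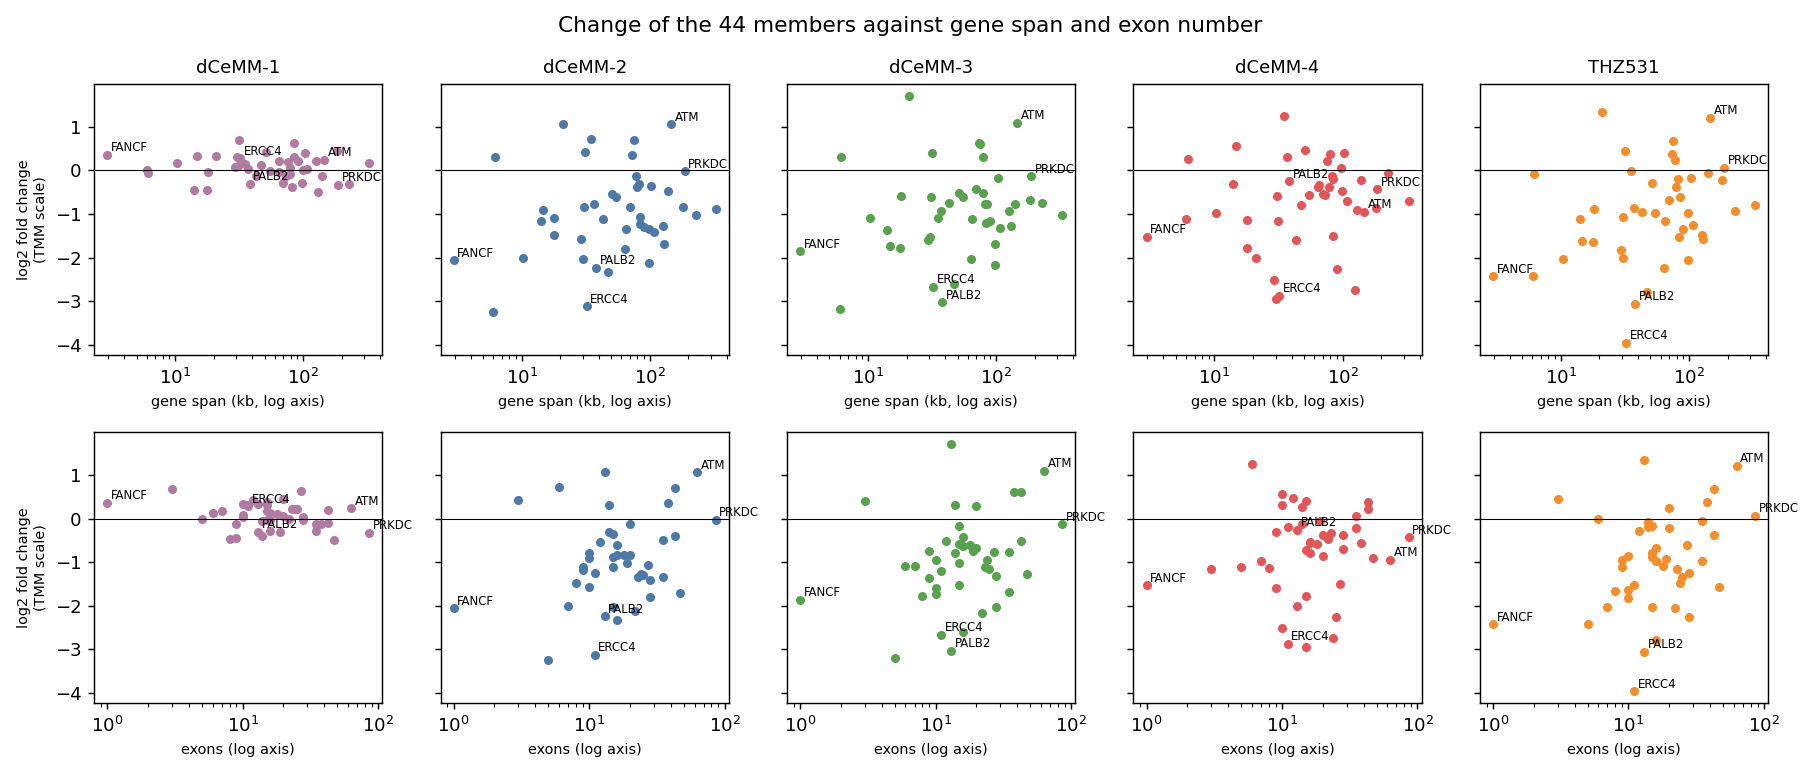
Log2 fold change against DMSO on the TMM scale (y axis) of each of the 44 genes (points) against gene span in kb (top, log axis) and exons of the coding transcript (bottom, log axis), 1 column per compound. FANCF at the short end lies low and ATM and PRKDC at the long end lie high with THZ531, while the points between scatter widely; on the spike-in scale ATM and PRKDC are below 0.

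The other genes of the pathway, a list of 43 further recombination, Fanconi and ATR-pathway genes, had medians of -0.57, -0.75, -0.21 and -0.83 on the TMM scale with dCeMM-2, dCeMM-3, dCeMM-4 and THZ531, where the medians of all genes were -0.02, -0.15, 0.01 and -0.10. With dCeMM-2, 25 fell and 12 rose, beside 41.2% and 37.1% of all genes, which made 58.1% and 27.9% of the list. With dCeMM-3, 24 fell and 14 rose, 55.8% and 32.6% of the list beside 45.1% and 35.9% of all genes. Of the shorter and longer protein-coding genes, 51.8% and 53.4% were lower with dCeMM-3, near the share of the list. With dCeMM-4, 23 fell and 9 rose, 53.5% and 20.9% beside 35.3% and 32.9%, and with THZ531 27 fell and 12 rose, 62.8% and 27.9% beside 43.7% and 35.8%. TOP3A, the topoisomerase that works with BLM, fell, with log2 changes of -2.69 (SE 0.12) with dCeMM-2, -2.50 (SE 0.12) with dCeMM-3 and -2.78 (SE 0.12) with THZ531. ETAA1, an activator of ATR, fell, with log2 changes of -2.55 (SE 0.15) with dCeMM-2 and -2.92 (SE 0.15) with THZ531. USP1, which removes ubiquitin from FANCD2, fell, with a log2 change of -2.81 (SE 0.11) with dCeMM-3 and rose by 1.08 (SE 0.09) with dCeMM-4, where it was also higher on the spike-in scale at 0.51. BRCC3, a deubiquitinase of the BRCA1-A complex, fell, with a log2 change of -2.81 (SE 0.09) with dCeMM-4, ahead of RAD52 at -1.82 (SE 0.25). ABRAXAS1, the scaffold of the same complex, rose on the TMM scale by 1.2 (SE 0.09) with dCeMM-2, 1.01 (SE 0.09) with dCeMM-3 and 1.09 (SE 0.09) with THZ531 and was lower on the spike-in scale, at -0.57, -0.80 and -0.76. Against the spike-in each of the 43 was lower with these 3 compounds, as were 83%, 83.7% and 84.7% of all genes. With dCeMM-1, 4 fell and 9 rose, 9.3% and 20.9% of the list beside 14.8% and 16.5% of all genes, which is near the background. On the spike-in scale 0 were called lower and 0 higher with dCeMM-1. HUS1, part of the checkpoint clamp, rose by 0.63 (SE 0.09) on the TMM scale, not called on the spike-in scale (0.69).

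Beside these, 24 excision and mismatch repair genes had medians of -0.14, 0.10, -0.37 and -0.20 with dCeMM-2, dCeMM-3, dCeMM-4 and THZ531, and 12, 10, 16 and 12 of them fell while 8, 8, 4 and 5 rose. The shares that fell, 50%, 41.7%, 66.7% and 50%, stand beside 41.2%, 45.1%, 35.3% and 43.7% of all genes, so that the dCeMM-3 share was under the background. Of the shorter and longer protein-coding genes, 47% and 49% were lower with dCeMM-2 and 51.4% and 49.2% with THZ531. The excision and mismatch shares of 50% with these 2 compounds were near that background. PMS2, of mismatch repair, fell, with log2 changes of -2.43 (SE 0.15) with dCeMM-2 and -2.36 (SE 0.15) with THZ531, and MSH6 was at -2.86 (SE 0.08) with dCeMM-3. DDB2, of nucleotide excision repair, rose by 1.38 (SE 0.14) with THZ531 on the TMM scale, where the spike-in value was -0.46 and not called. Of 19 replication genes of S phase 10, 7, 10 and 7 rose and 7, 10, 6 and 6 fell in the same order on the TMM scale. The risen shares of 52.6%, 36.8%, 52.6% and 36.8% stand beside 37.1%, 35.9%, 32.9% and 35.8% of all genes, close to them with dCeMM-3 and THZ531. The medians were 0.22, -0.15, 0.21 and 0.12. On the spike-in scale 18, 19 and 19 of the 19 were lower with dCeMM-2, dCeMM-3 and THZ531, where most genes were. PCNA, the sliding clamp, rose by 1.44 (SE 0.06) with dCeMM-2 relative to other genes, with a spike-in value of -0.35 that was not called, and CDC6, which loads the replicative helicase, fell, with a log2 change of -2.58 (SE 0.11). Of 8 end-joining genes 5, 5, 7 and 4 fell (62.5%, 62.5%, 87.5% and 50% of the list) and 1, 1, 1 and 2 rose in the same order, among them DCLRE1C (Artemis) at -2.08 (SE 0.13) with dCeMM-2 and POLM at -1.94 (SE 0.15) with dCeMM-4. LIG4 rose by 0.75 (SE 0.16) with dCeMM-3 on the TMM scale and was lower on the spike-in scale, at -1.06. The difference between these lists and the 44 genes was not tested.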

How the data were processed

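The authors deposited 1 table per library of unnormalized read counts for each gene. Per the submitters' processing notes the tools were Trimmomatic 0.32, STAR 2.5.2b, Picard and HTSeq 0.11.2 with build GRCh38.p7. Strand setting and use of molecular identifiers are not given in the sources used here. Of 58051 identifiers 57447 matched GENCODE release 29, the source of symbols, positions, spans and exon numbers. HTSeq summary rows, 92 ERCC and 7 SIRV rows stayed out of gene totals and tests; spike-in rows took at most 0.611% of counts.

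Counts were analysed with edgeR 4.0.16 in R 4.3.3. After filterByExpr by group, TMM scaling and a robust quasi-likelihood model (glmQLFit, glmQLFTest) with 1 coefficient per group were fitted to all 18 libraries, with 12 residual degrees of freedom. The same model with library sizes set to the summed ERCC and SIRV counts gave the spike-in scale. Adjusted p-values (Benjamini-Hochberg) run over the 15055 genes of a contrast, with a threshold of 0.05. The fit was tested on simulated counts. No pair of replicate libraries was identical or within sampling noise. Group values are means ± SD over 3 libraries.

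The 44 members, the role groups and the other lists were chosen with earlier results of these data known. Values per library are given for BRCA1, BRCA2, ATM, ATR, FANCD2, FANCI, PALB2, CHEK1, RAD51C and PRKDC and for members among the 3 largest rises or falls against DMSO. Other lists name at most the 2 largest called changes each way, and pairs of compounds the 4 largest. Span is the length of the gene record, and exons are those of the coding transcript with the longest coding sequence. Promoter windows are those of RefSeq on GRCh38.p14. Intronic polyadenylation signals were not analysed here. Alternatives were DESeq2 1.42.0, its size factors, no filter, 2-group fits, a replicate block, ERCC or SIRV alone, merged exonic blocks and leaving out each library.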

Additional observations from a re-analysis of the deposited data

How the results depend on the processing

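Of 5852 member values under the alternatives, 5682 kept their side of the threshold, 124 lost a call and 46 gained one; 109 differed in sign, all of them called in neither fit, and 0 called values reversed. The 4 called values that moved by over 1.5 times were all of ATRIP, without dCeMM-4 replicate 3. DESeq2 called 5 members higher with dCeMM-1 in place of 8, and the cause was not tested. Merged exonic blocks gave a rho of 0.08 in place of 0.11 with dCeMM-4. DESeq2's size factors in edgeR moved the median of all genes by 0.16 with THZ531 and dCeMM-3 and by 0.12 with dCeMM-4.

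Leaving out 1 library at a time, members lower and higher numbered 34 to 36 and 5 to 7 with dCeMM-2, 35 to 36 and 6 to 7 with dCeMM-3, 30 to 33 and 5 to 7 with dCeMM-4, 31 to 32 and 6 with THZ531, and 8 to 9 and 5 to 8 with dCeMM-1. On the spike-in scale they were 43 and 0 with dCeMM-2, dCeMM-3 and THZ531, 34 to 36 and 1 with dCeMM-4, and 0 and 0 to 1 with dCeMM-1. Between compounds, 8 to 13 and 5 to 8 differed for dCeMM-2 against dCeMM-3, 22 to 23 and 13 to 14 for dCeMM-2 against dCeMM-4, and 21 to 22 and 13 to 16 for dCeMM-3 against dCeMM-4.

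Replicate numbers did not pair the libraries: correlations of same-numbered deviations ran from -0.144 to 0.125, and no pair of groups had all above 0.1. With the replicate block 35 and 6 members were lower and higher with dCeMM-2, 35 and 7 with dCeMM-3, 33 and 7 with dCeMM-4, 32 and 6 with THZ531, and 9 and 9 with dCeMM-1; counts between compounds were unchanged at 10 and 6, 23 and 14, and 22 and 14. On the spike-in scale 0 were higher with dCeMM-1 under the block, in place of 2. Depth limits ATRIP, FANCE and FAAP24, which had the fewest counts.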

Other observations

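By the outermost start of each gene record, 18 of the 44 genes (40.9%) have a protein-coding gene that starts on the opposite strand within 1000 bases. The share was 17.6% of the 12332 protein-coding genes tested. For BRCA1 the outermost start is chr17:43170245, far upstream of the promoter window shown above, which ends at 43125614. The pair of BRCA1 with NBR1 therefore does not hold for the start of that window. Among the pairs are ATM with NPAT, BRCA1 with NBR1, PALB2 with DCTN5, PRKDC with MCM4, FANCF with GAS2, CHEK2 with HSCB and MRE11 with ANKRD49. Exons of 24 of the 44 overlap a gene on the opposite strand and those of 7 overlap one on the same strand.

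The mRNA levels of the proteins that the compounds act on were not alike among the cyclin K compounds. CCNK, which encodes cyclin K, fell with dCeMM-3 and THZ531, with log2 fold changes of -1.26 (SE 0.07) and -0.34 (SE 0.06) on the TMM scale. With dCeMM-2 it rose on that scale, at 0.57 (SE 0.06), and was lower on the spike-in scale, at -1.22. With dCeMM-4 it rose on the TMM scale, at 0.78 (SE 0.06), and its spike-in value of 0.20 was not called. With dCeMM-1 CCNK was lower on the TMM scale, at -0.27 (SE 0.06), and not called on the spike-in scale, at -0.21. CDK12 fell with dCeMM-2, dCeMM-3 and THZ531, at -2.04, -2.05 and -1.38 (SE 0.07 each). With dCeMM-4 CDK12 was at 0.06 (SE 0.07), not called, and was called lower on the spike-in scale, at -0.51. CDK13 was at -1.16, -2.38 and -0.81 with dCeMM-2, dCeMM-3 and THZ531, and at 0.15 with dCeMM-4, not called. RBM39 rose with dCeMM-1, at 0.84 (SE 0.07) on the TMM scale and 0.90 on the spike-in scale. RBM39 also rose with dCeMM-4 on the TMM scale, at 0.51 (SE 0.07), with a spike-in value of -0.06 that was not called. It fell with dCeMM-2, dCeMM-3 and THZ531, at -0.39, -1.34 and -0.46 on the TMM scale. These are mRNA values and give no protein level.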
